A study of Mus musculus with 2 samples.

Results

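Amino acid transporters were described as 9 genes, Slc3a2, Slc7a1, Slc7a5, Slc7a7, Slc7a8, Slc7a11, Slc1a5, Slc38a2 and Slc15a3, chosen by symbol from the 23238 gene symbols counted. All 9 were found in each library, each as a single entry. The cells were bone marrow-derived dendritic cells (BMDCs), which take up and present antigen and were raised from marrow of female C57BL/6 mice aged 7 weeks. Cultures received 20 ng/ml of the growth factor GM-CSF, renewed on day 3, and non-adherent or loosely attached immature cells were taken on day 6. The control group and the UNE-C1 group each had 1 library. UNE-C1 was given at 100 nM for 24 h, while the treatment of the control culture, if any, and the number of animals pooled are absent from the labels. UNE-C1 is known as a domain of cysteinyl-tRNA synthetase that binds TLR2 and TLR6, receptors of microbial lipopeptides. The question was which transcripts differ after its addition. With 1 library per group there was no replicate error and no test, and every interval below covers counting error only.

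Amino acids cross membranes on carriers of the solute carrier families. Several SLC7 proteins, called light chains, reach the cell surface only when bound to a glycoprotein heavy chain, 4F2hc, the product of Slc3a2. In myeloid cells such carriers bring in cystine for glutathione, arginine for nitric oxide and arginase, and leucine and glutamine for growth and mTORC1 signalling. Several carrier genes are known targets of ATF4, the transcription factor of the amino acid response, and Slc7a11 is also a known target of NRF2.

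Total depth was 14857198 reads (control) and 15975821 reads (UNE-C1), in a 3'-end protocol in which longer transcripts do not give more reads. Levels of different genes could therefore be set side by side as CPM, reads scaled to a common library size after TMM scaling. Conventional dendritic cell markers were present in both libraries and summed to 12613 CPM (control) and 12162 CPM (UNE-C1). Of 12 with enough reads, 2 were at least 2-fold higher (Xcr1 and Irf8) and 2 lower (Itgax and Clec9a). Most of the sum came from the MHC class II genes H2-Aa (5395 and 4887 CPM) and H2-Ab1 (2732 and 2594 CPM) and from Cd74 (2907 and 2901 CPM). Other markers on the list ranged widely. Itgax stood at 759 and 246 CPM, Irf8 at 396 and 991 CPM, and Ccr7 at 304 and 439 CPM. Among the low ones were Zbtb46 at 3.71 and 4.37 CPM, Xcr1 at 3.23 and 13.3 CPM, and Flt3 at 8.55 and 4.37 CPM. Cd209a had 0 reads in each library. Sums of different marker lists therefore do not give the shares of cell types in the culture. Neutrophil markers were also present, and 11 of 12 with enough reads were at least 2-fold lower in the UNE-C1 library. The exception, Lcn2, was at least 2-fold higher (log2 fold change 1.28). The summed level of the neutrophil markers was 8549 CPM (control) and 3762 CPM (UNE-C1). Monocyte and macrophage markers summed to 5139 and 5245 CPM, with 4 of 13 higher and 6 lower, and none of their 14 markers was at 0. Mast cell, basophil and eosinophil markers summed to 1233 and 810.1 CPM, with 3 of 8 lower. Erythroid and megakaryocyte markers summed to 299 and 159 CPM, and none of 3 was counted as changed. B cell markers summed to 2.03 and 0.352 CPM, with Pax5 at 0 reads, and T and natural killer cell markers to 1.73 and 0.987 CPM, with Cd3e at 0. The part of cell composition in the differences below was not tested. In RNA from a whole culture, fewer cells of a type and less RNA per cell cannot be told apart.

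The 9 transporters did not move in 1 direction. Slc7a8 and Slc15a3 stood at least 2-fold above the control with UNE-C1, Slc1a5 was at least 2-fold lower, and 6 passed neither threshold. These counts use log2 fold change on the log2(CPM + 1) scale, UNE-C1 over control, among genes that reached 50 reads in either library, a floor that all 9 passed. By the same rule, 9.31% of the 10469 genes compared were at least 2-fold higher and 9.42% were at least 2-fold lower. The Slc15a3 difference is uncertain, because its reads cannot be told apart from those of Tmem132a on the opposite strand, as given below. The median log2 fold change of the 9 was 0.39, with 5 above 0 and 4 below, and that of all genes was -0.00. Scaled by total counts rather than TMM, the median of all genes moved to -0.33 and higher genes made up 28.0% of those past 2-fold, not 49.7%, so differences are read against that median. The summed reads of the 9 were 26914 (control) and 35862 (UNE-C1), or 1608 and 2528 CPM, a ratio of 1.57 (95% interval 1.55 to 1.60). As shares of all reads, without TMM scaling, they were 0.181% and 0.224%, a smaller difference. The interval does not cover the choice of scaling, and the sum includes the uncertain reads of Slc15a3 (3483 and 7685).

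**Figure D1:**
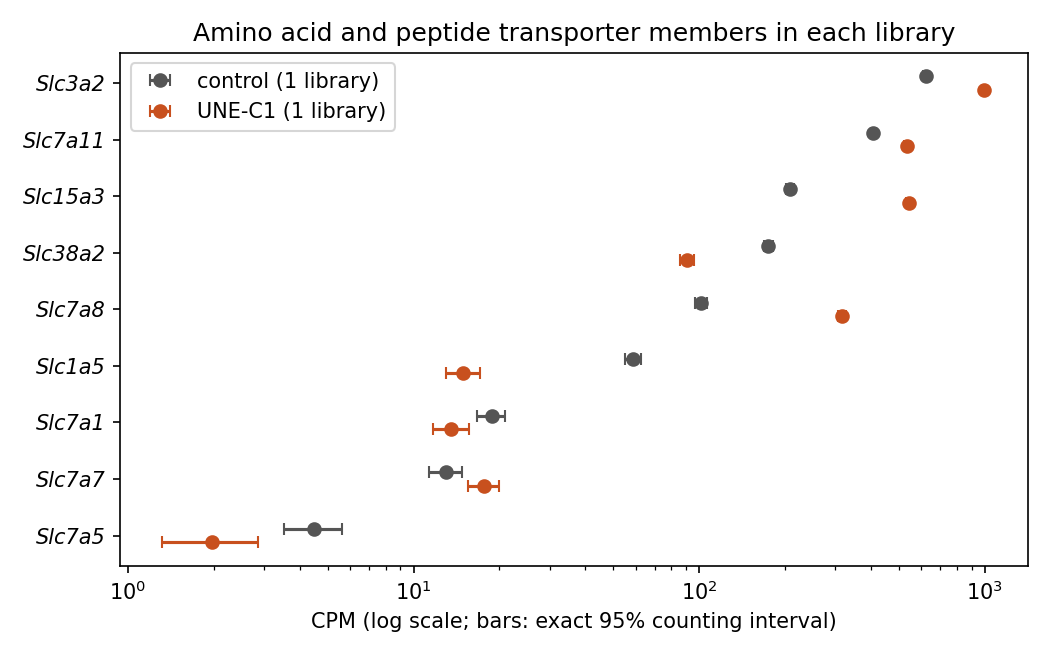
CPM of each of the 9 transporters on a log axis, with control in grey and UNE-C1 in orange, 1 library each, and bars for the exact 95% counting interval. Slc3a2 was highest in each library (622 and 996 CPM) and Slc7a5 lowest (4.48 and 1.97 CPM), and Slc1a5 lay far to the left in UNE-C1 (58.7 and 14.9 CPM).

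In the control the order of levels was Slc3a2, Slc7a11, Slc15a3, Slc38a2, Slc7a8, Slc1a5, Slc7a1, Slc7a7 and Slc7a5, and no neighbours in it had overlapping counting intervals. In the UNE-C1 library the order was Slc3a2, Slc15a3, Slc7a11, Slc7a8, Slc38a2, Slc7a7, Slc1a5, Slc7a1 and Slc7a5. There the intervals of Slc15a3 and Slc7a11 overlapped, as did those of Slc7a7 with Slc1a5 and of Slc1a5 with Slc7a1. Slc7a11, Slc38a2, Slc1a5 and Slc7a1 each stood lower in the second order, while Slc15a3, Slc7a8 and Slc7a7 stood higher.

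**Figure D2:**
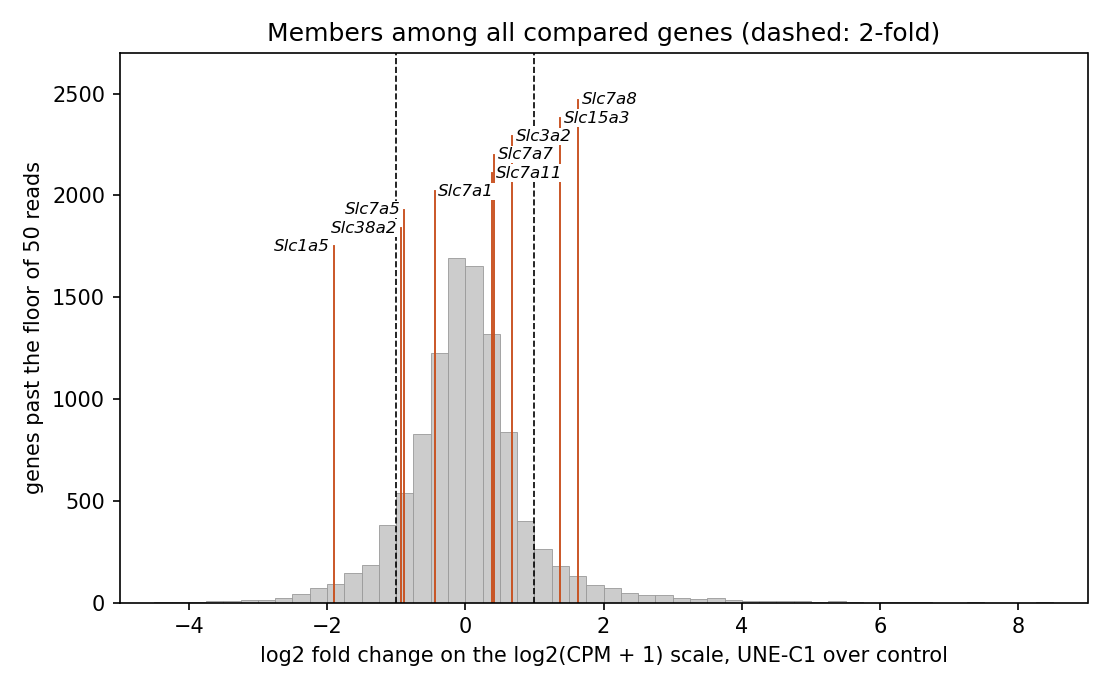
Histogram of log2 fold change, UNE-C1 over control, for the 10469 genes past the floor of 50 reads, with a line for each of the 9 transporters and dashed lines at 2-fold. Slc7a8 (1.63) and Slc15a3 (1.38) lie beyond the upper dashed line and Slc1a5 (-1.91) beyond the lower one.

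Slc3a2 encodes the shared heavy chain and spans chromosome 19, 8706882 to 8723369, minus strand, in GRCm38, which all positions here use. It had 10402 control reads (622 CPM) and 14128 UNE-C1 reads (996 CPM). It was the most abundant of the 9 in each library and took 38.6% and 39.4% of their reads. Its ratio was 1.60 (interval 1.56 to 1.64), under the 2-fold threshold, and 15.1% of compared genes had a higher log2 fold change than its 0.68.

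The light chain Slc7a11, also called xCT, exchanges glutamate for cystine and so supplies cysteine for glutathione. Its position is chromosome 3, 49892526 to 50443614, minus strand. It had 6825 control reads (408 CPM) and 7593 UNE-C1 reads (535 CPM), the second and the third highest level of the 9. Its ratio of 1.31 (1.27 to 1.36) was well under 2-fold, and its log2 fold change of 0.39 came down to 0.049 with total counts. High expression was thus already present in the control library, and the difference between the libraries was small.

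Slc7a8, or LAT2, is a light chain that exchanges neutral amino acids, large and small. Its position is chromosome 14, 54722209 to 54781946, minus strand. It had 1697 control reads (101 CPM) and 4489 UNE-C1 reads (316 CPM). Its ratio of 3.12 (2.95 to 3.30) was the largest of the 9, and 4.48% of compared genes had a higher log2 fold change than its 1.63.

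Slc7a5, or LAT1, is the light chain that carries leucine and other large neutral amino acids and is known for its rise in activated lymphocytes. Its position is chromosome 8, 121881150 to 121907694, minus strand. It had 75 control reads (4.48 CPM) and 28 UNE-C1 reads (1.97 CPM), the lowest level of the 9 in each. Its plain ratio was 2.27-fold lower (1.45 to 3.64), but its log2 fold change of -0.88 did not reach 2-fold on the log2(CPM + 1) scale, which holds back genes with few reads. It was counted as lower with a pseudocount of 0.1 (-1.14) and with total counts (-1.14). Within a library, Slc7a8 had 22.6 reads for each Slc7a5 read in the control against 160.3 with UNE-C1.

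Slc7a7, the light chain y+LAT1, exports cationic amino acids such as arginine in exchange for neutral ones. The gene spans chromosome 14, 54369442 to 54417780, minus strand. It had 217 control reads (13.0 CPM) and 250 UNE-C1 reads (17.6 CPM), which gives a ratio of 1.36 (1.13 to 1.64), or 0.42 as a log2 fold change. The last exon of its principal transcript shares 230 bases with exons of Oxa1l on the opposite strand, and Oxa1l had 647 and 566 reads, a ratio of 1.03 (0.920 to 1.16). Whether the counting used strand is not stated in any source used here, so reads of Slc7a7 and Oxa1l cannot be told apart in that stretch.

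The balance among light chains differed between the libraries although their sum per heavy chain stayed within counting error. The 6 light chains known to pair with 4F2hc (Slc7a5, Slc7a6, Slc7a7, Slc7a8, Slc7a10 and Slc7a11) had 85.9 reads per 100 Slc3a2 reads in the control against 87.8 with UNE-C1, a ratio of 1.02 (0.984 to 1.06). These values are ratios within a library, so they do not depend on how the libraries are scaled. Slc7a8 went from 16.3 to 31.8 reads per 100 Slc3a2 reads, a ratio of 1.95 (1.83 to 2.07). Slc7a11 stood at 65.6 and 53.7, a ratio of 0.819 (0.786 to 0.854).

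As a share of light chain reads, Slc7a11 made up 76.4% of the control (exact 95% interval 75.5 to 77.3) and 61.2% of the UNE-C1 library (60.4 to 62.1). Slc7a8 made up 19.0% (18.2 to 19.8) and 36.2% (35.4 to 37.1). There were thus 4.02 Slc7a11 reads per Slc7a8 read in the control against 1.69 with UNE-C1. The minor light chains were lower relative to the heavy chain or had an interval that included no difference. Slc7a5 was 3.64-fold lower per Slc3a2 read (2.33 to 5.84), Slc7a6 4.11-fold lower (2.85 to 6.04), and Slc7a7 had a ratio of 0.848 (0.703 to 1.02). Slc7a10 had 0 reads in each library, which allows a level of up to 0.179 CPM in the control against 0.211 CPM with UNE-C1.

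**Figure D3:**
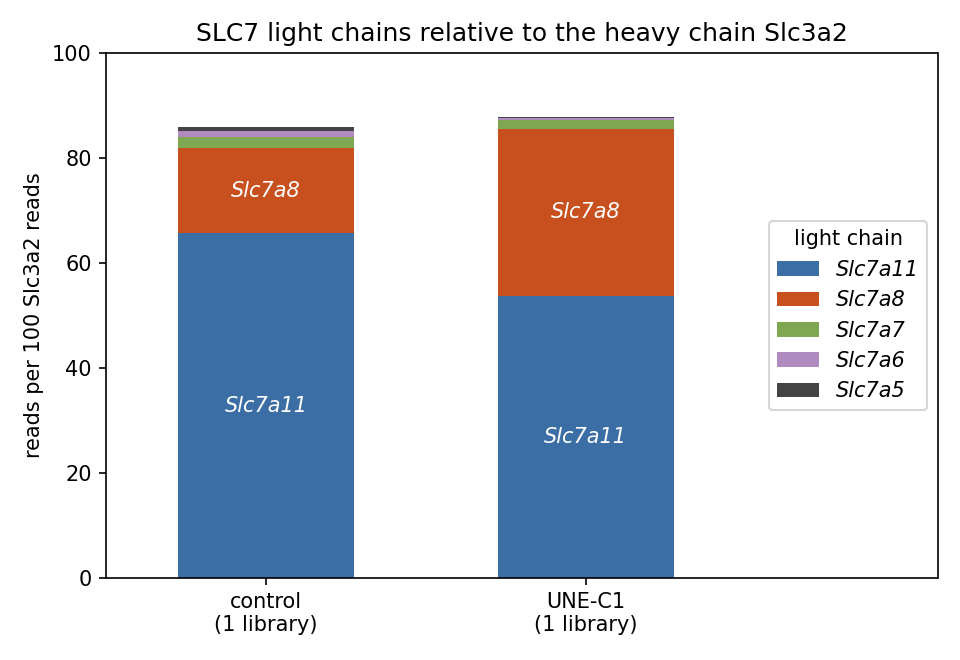
Stacked bars of light chain reads per 100 Slc3a2 reads in the control and the UNE-C1 library, 1 library each. The bars are of similar height (85.9 and 87.8), and the Slc7a8 part is taller in UNE-C1 (16.3 and 31.8) while the Slc7a11 part is shorter (65.6 and 53.7).

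The sequences before the start sites of the heavy chain and of these 2 light chains are shown because the 3 genes make up most of the family's reads and did not move alike. Each is the 200 bases just before the RefSeq start (GRCm38.p6), read 5′ to 3′ on the gene's own strand. Capitals mark matches to TGATGNAA, the core of the C/EBP-ATF element through which the amino acid response is known to act, on either strand.

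Slc7a11 (chr3:50443614-50443813, minus strand): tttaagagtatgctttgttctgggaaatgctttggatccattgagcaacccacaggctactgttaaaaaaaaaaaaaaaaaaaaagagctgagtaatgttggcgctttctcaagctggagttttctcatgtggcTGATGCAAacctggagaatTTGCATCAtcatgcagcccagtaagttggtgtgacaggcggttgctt

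Slc7a8 (chr14:54781887-54782086, minus strand): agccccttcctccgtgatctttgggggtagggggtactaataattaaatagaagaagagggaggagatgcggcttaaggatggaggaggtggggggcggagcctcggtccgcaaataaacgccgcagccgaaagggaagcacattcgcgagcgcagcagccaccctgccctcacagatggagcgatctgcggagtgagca

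Slc3a2 (chr19:8713898-8714097, minus strand): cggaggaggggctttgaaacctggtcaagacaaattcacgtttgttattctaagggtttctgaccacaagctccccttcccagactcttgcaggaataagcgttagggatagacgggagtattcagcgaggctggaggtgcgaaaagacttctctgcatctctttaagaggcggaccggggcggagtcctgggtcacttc

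Slc7a11 held 2 matches, TGATGCAA at bases 66 to 59 before the start and, on the other strand, TTGCATCA at bases 47 to 40. The windows of Slc7a8 and Slc3a2 held none. The RefSeq start used for Slc3a2 lies inside the GENCODE gene, and sequence before the annotated end at 8723369 was not searched. RefSeq windows of 300 bases, 250 before and 50 after a start, were found for 6 of the 9 genes, in 11 windows that overlap in part: Slc38a2, Slc3a2, Slc7a1, Slc7a7, Slc7a8 and Slc7a11. TGATGNAA occurred in 3 of the 11, those of Slc7a11 and of 2 neighbouring starts of Slc7a7 that share a match, against 3.97% of all 32851 windows of that length. At least 2 matches occurred in 23 of the 32851, of which 2 belong to the 9 genes, the Slc7a11 window and 1 window of Slc7a7. TGACNNNGC, the core of the antioxidant response element, occurred in 2 of the 11 (1 of Slc38a2 and 1 of Slc7a1) against 12.4% of all. The core of the interferon-stimulated response element occurred in none of the 11, against 3.44% of all, and ACGTG, the core of the hypoxia response element, in 3, against 19.6%. All motifs were searched on both strands, and a match describes only these letters in these windows.

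Slc1a5 and Slc38a2, carriers of small neutral amino acids, both had fewer reads with UNE-C1. Slc1a5, or ASCT2, exchanges glutamine, serine and alanine and spans chromosome 7, 16781340 to 16798274, plus strand. It had 983 control reads (58.7 CPM) and 212 UNE-C1 reads (14.9 CPM), 3.93-fold lower (3.39 to 4.58). Only 2.05% of compared genes had a lower log2 fold change than its -1.91, and its share of the reads of the 9 went from 3.65% to 0.591%.

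Slc38a2, or SNAT2, brings in glutamine and alanine together with sodium and is known to be raised by amino acid shortage. The gene spans chromosome 15, 96687392 to 96699730, minus strand. It had 2918 control reads (174 CPM) and 1285 UNE-C1 reads (90.6 CPM), 1.92-fold lower (1.80 to 2.06). Its log2 fold change of -0.94 fell just short of the threshold, and with total counts it was counted as lower at -1.28. Slc1a5 and Slc38a2 did not differ in step, since there were 0.337 Slc1a5 reads per Slc38a2 read in the control against 0.165 with UNE-C1 (ratio 0.490, interval 0.414 to 0.577).

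Relatives of this pair stood on either side. Slc38a1, or SNAT1, another sodium-coupled glutamine carrier, had 2099 and 502 reads (log2 fold change -1.80). Slc1a4, or ASCT1, which carries serine, alanine and cysteine, had 29 and 155 reads (log2 fold change 2.13). There were 33.9 Slc1a5 reads per Slc1a4 read in the control against 1.37 with UNE-C1. Slc1a5, Slc38a1 and Slc38a2, grouped after each was seen to be lower, summed to 359 CPM (control) and 141 CPM (UNE-C1), 2.54-fold lower (2.42 to 2.68). The direction of that sum was set by the choice of genes. Slc7a8, an exchanger of neutral amino acids that went the other way (101 and 316 CPM), was not in it.

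Of the carriers of cationic amino acids, Slc7a1, or CAT1, is the widely expressed importer of arginine and lysine and works without a heavy chain. The gene spans chromosome 5, 148327410 to 148399904, minus strand. It had 314 control reads (18.8 CPM) and 192 UNE-C1 reads (13.5 CPM), 1.39-fold lower (1.15 to 1.67). Its log2 fold change of -0.44 was far from the threshold. Its relative Slc7a2, or CAT2, the inducible arginine carrier of macrophages, had 1293 and 19739 reads (77.3 and 1392 CPM), 18.0-fold higher (17.0 to 19.1). There were 4.12 Slc7a2 reads per Slc7a1 read in the control against 103 with UNE-C1. Of the arginine-consuming enzymes, Nos2 had 7 and 6510 reads and Arg1 60 and 5678, log2 fold changes of 8.34 and 6.45. Arg2, with 1313 and 1042 reads, stood at -0.09.

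Slc15a3 encodes a lysosomal carrier of histidine and of small peptides, among them muramyl dipeptide, the bacterial ligand of NOD2. The gene spans chromosome 19, 10839727 to 10859362, plus strand. It had 3483 control reads (208 CPM) and 7685 UNE-C1 reads (542 CPM), 2.60-fold higher (2.50 to 2.71). In the UNE-C1 library it took 21.4% of the reads of the 9, against 12.9% in the control. Its relative Slc15a4, which has the same kind of substrates, had 1189 and 1360 reads (log2 fold change 0.43), so that Slc15a3 reads per Slc15a4 read went from 2.93 to 5.65.

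The end of Slc15a3 runs into that of Tmem132a, a gene on the opposite strand. The last exon of the coding Slc15a3 transcript is 286 bases long and shares 94 of them with Tmem132a exons, and all annotated exons of Slc15a3 together share 1541. Tmem132a had 2505 and 5642 reads, a ratio of 2.66 (2.53 to 2.79). There were 1.39 Slc15a3 reads per Tmem132a read in the control against 1.36 with UNE-C1 (ratio 0.980, interval 0.920 to 1.04). Reads of a 3'-end protocol lie near such shared ends, so without a stated strand setting the reads of Slc15a3 and Tmem132a cannot be told apart, and the Slc15a3 difference is uncertain for that reason. All 3 genes of muramyl peptide sensing were at least 2-fold higher: Nod1 with 120 and 717 reads, Nod2 with 107 and 242, and the kinase Ripk2 with 111 and 267. With total counts, or with a pseudocount of 5, 2 of the 3 were counted as higher. Of all compared genes, 9.31% were at least 2-fold higher with TMM scaling.

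Other carriers of amino acids were compared through lists. Counts on these and the later lists stand beside 9.31% of all compared genes at least 2-fold higher and 9.42% lower. Of 40 other cell surface transporters, 11 passed the floor, of which 3 were at least 2-fold higher and 3 lower, with a median log2 fold change of -0.24. The higher ones were Slc7a2, Slc1a4 and the glycine carrier Slc6a9 (21 and 134 reads). The lower ones were Slc38a1, Slc7a6 and the proton-coupled Slc36a2 (151 and 27 reads), the last 2 of which were named after their values were seen. With a floor of 200 reads, which 6 passed, 1 was higher and 1 lower, and with no floor the median over 22 genes with a read was 0.06. The most abundant of the 11 in the control was the taurine carrier Slc6a6, at 547 and 745 CPM, also named after its values were seen.

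Carriers of the lysosome and of mitochondria were also listed. Apart from Slc15a3, which is not on the list, none of the 7 lysosomal transporters past the floor was counted as changed. Their median was 0.36, with a range from -0.40 for the cystine exporter Ctns to 0.84 for Pqlc2, which exports cationic amino acids. Of 10 mitochondrial carriers, the glutamate carrier Slc25a22 was higher (log2 fold change 1.01). Slc25a13 and Slc25a29, an aspartate-glutamate carrier and a carrier of basic amino acids, were lower (-1.52 and -1.46). The median of the 10 was -0.21, or 0.07 with a floor of 200 reads, and Slc25a22 was not counted as higher with total counts or a pseudocount of 5. Slc25a29 was not counted as lower with a pseudocount of 5 and did not reach a floor of 200 reads, which left 1 lower. Slc25a12, the other aspartate-glutamate carrier, stood at 0.88.

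**Figure D4:**
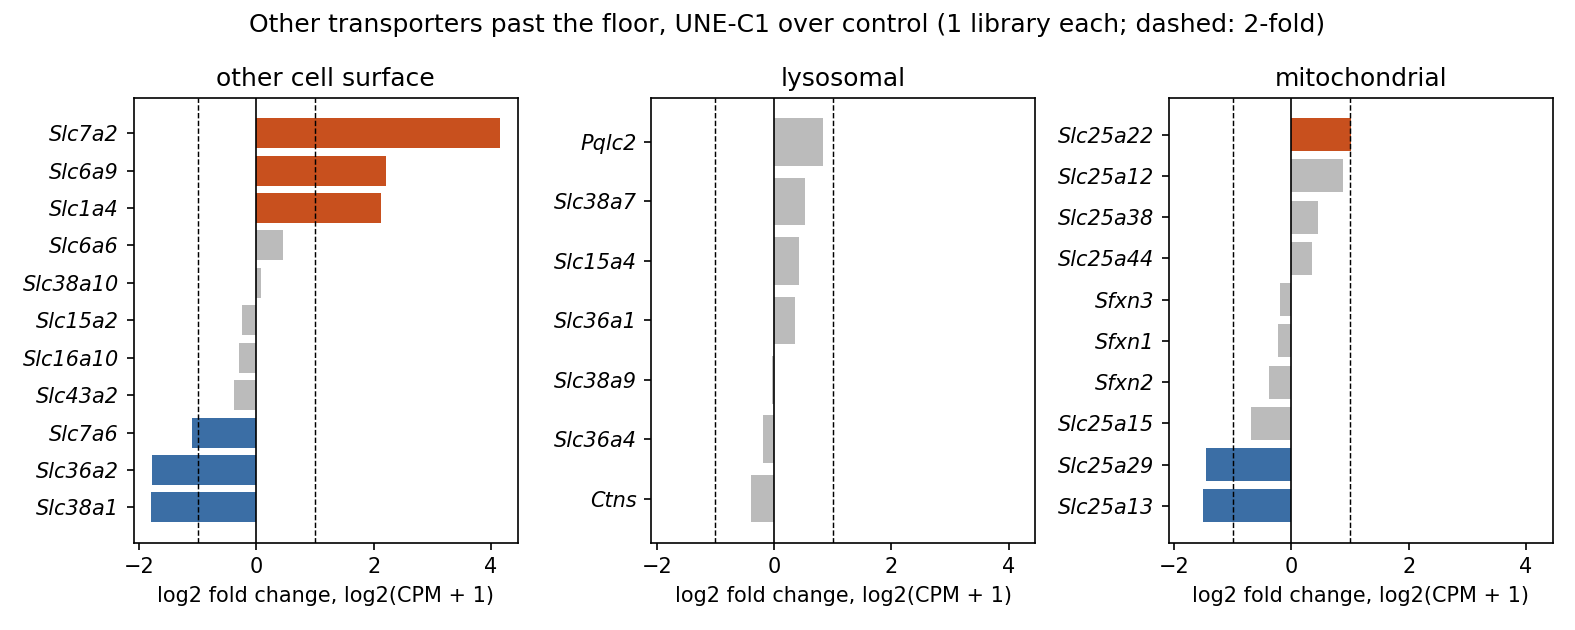
Log2 fold change on the log2(CPM + 1) scale, UNE-C1 over control, of the 11 cell surface, 7 lysosomal and 10 mitochondrial transporters past the floor, 1 library per group; orange and blue mark at least 2-fold higher and lower. Slc7a2 stands out at 4.15 among the cell surface genes, and none of the 7 lysosomal genes shown reaches a dashed line. Slc15a3 is not shown.

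Genes that respond to amino acid supply were found on either side of the control. On the list of ATF4 genes, 8 of 15 past the floor were at least 2-fold higher and 2 lower, with a median log2 fold change of 1.01. With total counts 5 were higher and 3 lower and the median was 0.68, and with no floor the median over 21 genes was 0.59. Trib3 (3.67), Ddit4 (3.36) and Nupr1 (1.90) were higher, whereas the serine synthesis enzyme Psat1 (-1.99) was lower. Slc3a2, Slc7a11, Slc38a2, Slc7a5 and Slc7a1, which are known as targets of the same response, had log2 fold changes from -0.94 to 0.68, none past 2-fold on the log2(CPM + 1) scale with TMM scaling. As given above, Slc7a5 was past it with a pseudocount of 0.1, and Slc38a2 and Slc7a5 with total counts. The range depends on which carriers are named, since Slc1a5 (-1.91), Slc1a4 (2.13) and Slc6a9 (2.21) were past 2-fold with TMM scaling. Which carriers respond to ATF4 in these cells was not tested.

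Of 13 genes on the NRF2 list, 5 were at least 2-fold higher and none lower (median 0.74), or 1 lower with total counts. They included Hmox1 (3.41) and the glutathione synthesis genes Gclc (1.96) and Gss (1.39), as well as the NRF2 inhibitor Keap1 (1.45). Slc7a11, the cystine carrier, stood at 0.39 beside these. Of 30 genes of amino acid sensing by mTORC1, 2 were higher and 1 lower, with a median of -0.03, and with total counts 1 was higher and 2 lower. Among all compared genes, 18.7% passed 2-fold in either direction with TMM scaling. Gatsl3, the older symbol of the arginine sensor Castor1, stood at 2.11, Fnip2 at 1.09, Depdc5 at 0.94 and the sestrin Sesn1 at -2.22. Of 13 enzymes that use the transported amino acids, Nos2 and Arg1 alone were counted as changed. The median of that list was -0.09, or 0.07 with no floor, and with total counts 1 gene was counted as lower. Glutamine synthetase Glul and the aminotransferase Got1 stood at -0.95 and 0.92.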

How the data were processed

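RNA was measured in 1 control and 1 UNE-C1 library, each started from 500 ng RNA and built with QuantSeq, a 3'-end kit, per the labels' protocols. The values deposited by the authors are raw read counts for each gene symbol, a unit recognised from whole numbers of unequal totals. Bowtie2, edgeR and the build mm10 appear in the submitters' processing notes, without versions or roles. The counting tool, annotation, strand setting and treatment of multiply mapped reads are not stated in any source used here. No molecular identifiers are named, so PCR copies count as reads.

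Reads of repeated symbols (35) were summed. CPM used TMM effective library sizes (edgeR 4.0.16, R 4.3.3), with factors of 1.13 for the control and 0.888 for UNE-C1. Log2 fold changes used a pseudocount of 1 CPM, and the 10469 genes that reached 50 reads in either library were compared. Plain ratios have exact conditional 95% intervals (scipy 1.17.1). No p-value or count model was used. The procedure was run on simulated counts that held counting error only and were scaled by totals. That run cannot show how the calls vary between cultures or with TMM scaling. The 9 genes and all lists were chosen with earlier results of these data known. Named genes are the 9 and up to 4 of each pathway list with the largest change. Cell type markers, genes on the opposite strand, Slc7a6, Slc7a10, Slc36a2, Slc6a6 and Arg2 are named outside that rule, and were chosen after their values were seen. Alternatives were total counts, DESeq2 1.42.0 size factors, other pseudocounts and floors, and libraries without their most abundant genes. Positions come from GENCODE M21 (GRCm38, mm10). Protein sequences were not used here.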

Additional observations from a re-analysis of the deposited data

How the results depend on the processing

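Slc7a8 and Slc15a3 were the 2 genes counted as at least 2-fold higher under all 7 alternatives, and Slc1a5 was counted as lower under all 7. None of the 7 bears on the overlap of Slc15a3 with Tmem132a, so the Slc15a3 difference stays uncertain for that reason. With total counts 3 of the 9 were counted as lower (Slc1a5, Slc38a2 and Slc7a5), and the median log2 fold change of all 9 was 0.049. With a pseudocount of 0.1 there were 2 (Slc1a5 and Slc7a5). Slc7a5 does not reach the floor of 200 reads. No gene of the 9 changed sign. Total counts leave out the shift that TMM removes, and a smaller pseudocount holds back low genes less. The number of all genes at least 2-fold lower was 986, against 1693 by total counts, 484 at pseudocount 5 and 579 at the floor of 200 reads, and 975 were higher, against 657 with total counts. As shares of light chain reads, the ratios of Slc7a8 and Slc7a11 were 1.91 and 0.802, within the counting intervals of their ratios per Slc3a2 read. Protein identity was not run. No paired analysis was possible because each group has 1 library. Depth limits Slc7a5 most, with 28 reads in the UNE-C1 library.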
